A study of Mus musculus with 4 samples.

Results

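The genes described here are 9 that move or convert glutamate, out of 45706 genes in the count table. They are 5 carriers of the Slc1 family (Slc1a1 to Slc1a5), glutamine synthetase (Glul), glutamate dehydrogenase (Glud1) and both glutamate decarboxylases (Gad1 and Gad2). Members were taken by gene symbol through the GENCODE M21 annotation of GRCm38, and all 9 had counts in every library. The series holds 4 RNA-seq libraries of mouse basal radial glia, taken from medial neocortex at embryonic stage E18.5. All 4 form 1 group, with the strain C57BL/6JOlaHsd, the heterozygous genotype Tubb-GFP/+ and the dye DiI in the sample titles, so no contrast between conditions exists. The labels do not say how the dye and the reporter were used to isolate cells, whether animals were pooled, or whether each library is another animal. The p-values thus reflect the spread among these samples alone, which may be technical.

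Glutamate is taken up from the extracellular space by the sodium-coupled carriers encoded by Slc1a1, Slc1a2 and Slc1a3, while Slc1a4 and Slc1a5 encode exchangers of neutral amino acids, glutamine among the substrates of the latter. Inside the cell, glutamine synthetase joins ammonia to glutamate, and glutamate dehydrogenase feeds the carbon of glutamate into the citric acid cycle. Glutamate decarboxylase makes the inhibitory transmitter GABA in interneurons. Radial glia and astrocytes are known for Slc1a3 and Glul.

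The carriers are related genes, so their coding sequences were compared to see how far reads of a member could be mistaken for another. The stretch of 60 bases that was best conserved over the 5 carriers is printed below 5′ to 3′ from the GENCODE M21 transcripts, with capitals where all 5 share the base (36 of 60).
Slc1a3: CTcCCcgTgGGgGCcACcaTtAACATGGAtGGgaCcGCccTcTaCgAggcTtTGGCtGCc
Slc1a2: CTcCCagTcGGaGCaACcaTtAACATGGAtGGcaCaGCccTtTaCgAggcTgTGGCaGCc
Slc1a1: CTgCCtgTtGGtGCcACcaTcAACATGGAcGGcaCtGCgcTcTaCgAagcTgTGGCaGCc
Slc1a4: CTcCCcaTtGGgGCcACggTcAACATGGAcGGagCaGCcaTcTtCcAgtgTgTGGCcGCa
Slc1a5: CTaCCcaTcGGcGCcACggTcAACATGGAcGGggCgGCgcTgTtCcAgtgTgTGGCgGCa
At 9 of the 60 bases the glutamate carriers Slc1a1, Slc1a2 and Slc1a3 share a base while Slc1a4 and Slc1a5 share another. Each stretch lies in a single coding exon, exon 8 of 10 of Slc1a3 (chr15:8642241-8642300, minus strand), exon 8 of 11 of Slc1a2 (chr2:102761091-102761150, plus strand), exon 10 of 12 of Slc1a1 (chr19:28905409-28905468, plus strand), exon 6 of 8 of Slc1a4 (chr11:20307951-20308010, minus strand) and exon 7 of 9 of Slc1a5 (chr7:16795834-16795893, plus strand). Over the whole coding sequence the closest carriers were Slc1a4 and Slc1a5, at 62.2% identity, and the most distant were Slc1a2 and Slc1a4, at 51.3%.

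The decarboxylases were closer. Their best conserved 60 bases, with capitals where the pair is identical (51 of 60), lie in exon 14 of 17 of Gad1 (chr2:70594678-70594737, plus strand) and exon 13 of 16 of Gad2 (chr2:22681342-22681401, plus strand).
Gad1: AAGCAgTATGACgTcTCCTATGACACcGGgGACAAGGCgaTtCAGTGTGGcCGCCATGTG
Gad2: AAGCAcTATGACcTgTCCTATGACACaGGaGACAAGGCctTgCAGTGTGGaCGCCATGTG
Whole coding sequences of Gad1 and Gad2 were 64.0% identical. No stretch of 50 bases of Slc1a4 or Slc1a5 occurred in a transcript of any other gene, and such shared stretches made up 0.704% of Slc1a3, 1.31% of Slc1a2, 1.17% of Gad2 and 1.49% of Gad1. They made up 6.49% of Glud1 and 12.6% of Glul, led by the pseudogenes Glud-ps and Glns-ps1, so the counts of these enzymes are less certain. For Slc1a1 the share was 31.0%, all of it from 4430402I18Rik, a gene on the opposite strand that covers 2631 of the 8257 exonic bases of Slc1a1. Without strand information their reads cannot be told apart. The counts given to 4430402I18Rik were 60 to 94 per library, against 897 to 1123 for Slc1a1.

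Library totals ran from 26540656 to 34837657 counts. Levels are in TPM, transcript abundance scaled to gene length and library size, computed here by dividing each count by its gene's merged exon length, and a gene was called above or below a level at an edgeR adjusted p under 0.05. As a check of the radial glia part of the label, all 13 radial glia markers were above 1 TPM, as were 75.7% of the protein-coding genes tested. They summed to 6261 to 7617 TPM, most of it Fabp7 (4631 TPM on average). Against 10 TPM, 12 of them were above and 1, Hopx, was below, at 3.03 ± 0.414 TPM (SD, n = 4). Whether the cells were basal was not tested. Markers of other cells were above 1 TPM too. Among them were 9 of 10 cortical excitatory neuron markers (8865 to 9895 TPM summed, most of it the pan-neuronal gene Tubb3 at 6691 TPM on average). So were all 7 intermediate progenitor markers (1284 to 1456 TPM), all 8 oligodendrocyte lineage markers (68.3 to 77.6 TPM) and 10 of 11 astrocyte markers (1188 to 1496 TPM). The same held for 9 of 17 interneuron markers (226 to 376 TPM, mostly Npy, Sst and Sp8). It also held for 5 of 8 microglia markers (18.1 to 41.6 TPM) and all 6 erythroid genes (2377 to 4203 TPM). Among the astrocyte markers Aldoc was the highest, at 552 TPM on average, while Aqp4 and S100b were at 5.12 and 2.85 TPM. Endothelial markers summed to 4.32 to 7.31 TPM, with 2 of 8 above 1 TPM. Choroid plexus and ependyma markers summed to 54.2 to 84.8 TPM (2 of 6 above 1 TPM), most of it Ttr (67.8 TPM on average). Mural markers summed to 11.6 to 15.7 TPM (3 of 6) and meningeal markers to 6.15 to 8.38 TPM (2 of 6). No marker in these lists was at 0 in all libraries. In bulk RNA, fewer cells of a type and less RNA per cell cannot be told apart, and the part of each cell type in the levels below was not tested. By a chi-square of counts per degree of freedom, replicate 4 stood furthest from the other libraries, at 22.6 to 29.8, against 10.4 to 15.1 among replicates 1 to 3.

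All 9 members were above 1 TPM by edgeR's quasi-likelihood test, where 65.9% of the 20991 genes tested were, and 75.7% of the protein-coding ones. Against 10 TPM, 5 members were above, beside 35.2% of all genes tested and 45.2% of protein-coding ones, and 3 were below, beside 58.0% and 48.7%. The median member was at 12.7 TPM, against a median of 4.79 TPM over all genes tested and 8.997 TPM over protein-coding ones. The members thus spanned low to high expression rather than sharing a level.

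**Figure D1:**
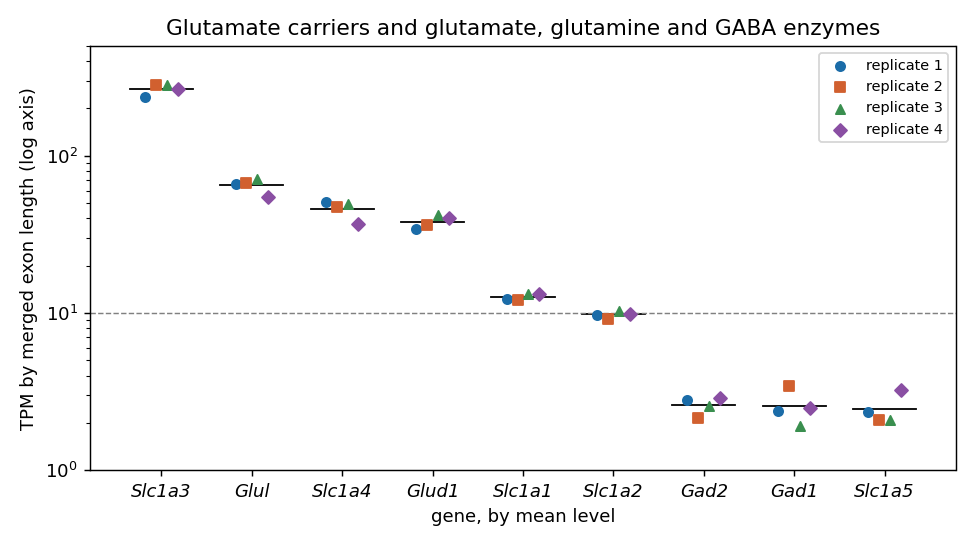
TPM by merged exon length (log axis) of the 9 members in each of the 4 libraries, ordered by mean; black lines are means and the dashed line marks 10 TPM. Slc1a3 sits alone between 237 and 282 TPM, and Gad2, Gad1 and Slc1a5 overlap between 1.91 and 3.45 TPM.

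Among the glutamate carriers Slc1a3, which encodes the glial transporter GLAST, was by far the highest. It lies on GRCm38 chromosome 15, 8634124 to 8710764. Its counts of 18143, 26931, 23090 and 18769 in replicates 1 to 4 corresponded to 237, 280, 282 and 267 TPM, or 266.5 ± 20.5 TPM (SD, n = 4). The lowest and highest library differed 1.19-fold, and 97.2% of the protein-coding genes in the table had a lower mean. It lay above 10 TPM by 4.74 ± 0.047 (log2, SE; edgeR adjusted p = 1.44e-16).

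Slc1a2 encodes GLT-1, the main glutamate transporter of mature astrocytes, and lies on chromosome 2, 102658659 to 102790784. It was at 9.79, 9.10, 10.4 and 9.92 TPM, or 9.79 ± 0.519 TPM (SD, n = 4). All 4 values lay close together, and none came near those of Slc1a3. Slc1a2 was not called different from 10 TPM (log2 difference -0.031 ± 0.065, SE, edgeR adjusted p = 0.656). With the longest transcript as length, though, it was called below that level, by -0.25 (edgeR adjusted p = 0.00454). With the principal transcript it was called below by -0.44 (edgeR adjusted p = 0.000164). On the deposited TPM it was lower still, at 3.42 ± 0.182 TPM (SD, n = 4).

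Slc1a1 encodes EAAC1, a carrier best known from neurons, and lies on chromosome 19, 28835049 to 28913960. It was at 12.3, 12.1, 13.2 and 13.2 TPM, or 12.7 ± 0.609 TPM (SD, n = 4), with the smallest spread of the 9 members on the log2 scale. Every library lay above the highest Slc1a2 value. It was above 10 TPM by 0.34 ± 0.068 (log2, SE; edgeR adjusted p = 0.000671), but below it by -1.10 on the deposited TPM (limma adjusted p = 1.79e-05).

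The neutral amino acid exchangers were far apart. Slc1a4, or ASCT1 (chromosome 11, 20302180 to 20332713), was at 51.0, 47.0, 49.6 and 36.6 TPM, or 46.0 ± 6.54 TPM (SD, n = 4). Slc1a5, the glutamine carrier ASCT2 (chromosome 7, 16781340 to 16798274), had 87, 98, 84 and 112 counts, or 2.33, 2.09, 2.10 and 3.26 TPM, with a mean of 2.44 ± 0.555 TPM. Replicate 4 was the lowest library for Slc1a4 and the highest for Slc1a5. Slc1a5 was above 1 TPM by 1.29 ± 0.17 (log2, SE; edgeR adjusted p = 2.3e-05) and below 10 TPM by -2.04 ± 0.17 (edgeR adjusted p = 7.85e-06).

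The remaining family members were near or below 1 TPM. Slc1a6, a carrier of cerebellar Purkinje cells, had 11 to 22 counts per library, or 0.8292 ± 0.1893 TPM (SD, n = 4), and was not called different from 1 TPM (edgeR adjusted p = 0.469). Slc1a7, a carrier known from the retina, had 1 to 19 counts, or 0.225 ± 0.220 TPM, and was called below 1 TPM (log2 difference -2.13 ± 0.65, SE; edgeR adjusted p = 0.0261). That call was kept in 1 of 4 fits that left out a library, that without replicate 2, and the adjusted p ran from 0.0185 to 0.0639 over them. Of the TPM summed over the 7 Slc1 genes, Slc1a3 made up 78.7% ± 2.14 (SD, n = 4), Slc1a4 13.6% ± 2.14, Slc1a1 3.76% ± 0.247, Slc1a2 2.90% ± 0.227 and Slc1a5 0.726% ± 0.187.

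Glul, which makes glutamine from glutamate, followed Slc1a3 in level. It lies on chromosome 1, 153899944 to 153909723, and was at 65.7, 67.1, 71.7 and 54.7 TPM, or 64.8 ± 7.21 TPM (SD, n = 4), lowest in replicate 4. Glud1 (chromosome 14, 34310727 to 34345265), whose product is a mitochondrial enzyme, was at 34.1, 36.4, 41.8 and 40.5 TPM, or 38.2 ± 3.59 TPM. The ranges of these enzymes did not overlap. Both were above 10 TPM, Glul by 2.70 ± 0.070 (log2, SE; edgeR adjusted p = 6.88e-12) and Glud1 by 1.93 ± 0.068 (edgeR adjusted p = 2.15e-10).

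The GABA-making enzymes were low. Gad1 (chromosome 2, 70553072 to 70602014) had 163, 297, 140 and 156 counts, or 2.38, 3.45, 1.91 and 2.48 TPM, with a mean of 2.56 ± 0.649 TPM (SD, n = 4). Gad2 (chromosome 2, 22622205 to 22693874) had 148, 143, 145 and 139 counts, or 2.81, 2.16, 2.57 and 2.87 TPM, with a mean of 2.60 ± 0.323 TPM. Replicate 2 was the highest library for Gad1 and the lowest for Gad2. Both were above 1 TPM, by 1.36 ± 0.15 (log2, SE; edgeR adjusted p = 4.89e-06) and 1.38 ± 0.14 (edgeR adjusted p = 1.61e-06), though Gad2 was below it by -0.42 on the deposited TPM (limma adjusted p = 0.0358). Of the 21519 protein-coding genes in the table, many with few or no counts, 50.002% and 50.17% had a lower mean, and both lay under the median of those tested (8.997 TPM).

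In order of mean level the members were Slc1a3, Glul, Slc1a4, Glud1, Slc1a1, Slc1a2, Gad2, Gad1 and Slc1a5. Of the 8 neighbours in this order, 3 had overlapping ranges: Slc1a4 and Glud1 (log2 ratio 0.26 ± 0.30, SD, n = 4), Gad2 and Gad1 (0.032 ± 0.36), and Gad1 and Slc1a5 (0.043 ± 0.35). These neighbours did not differ beyond their spread. The other gaps ran from 0.34 ± 0.038 (Slc1a1 over Slc1a2) to 2.03 ± 0.18 (Slc1a3 over Glul). Between libraries most members varied little: the SD of log2(TPM + 1) ran from 0.064 (Slc1a1) to 0.25 (Gad1), and 3 of 9 (Slc1a4, Slc1a5 and Gad1) exceeded 0.17, the median of 15405 genes with a mean of at least 1 TPM.

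Ratios within libraries were examined for 12 gene pairs, of which 10 are reported, as log2 of (TPM + 1) over (TPM + 1), and tested by flipping signs over libraries (exact, two-sided). With 4 libraries no pair can pass 0.05, since at best 2 of 16 sign patterns are as extreme. The ratio had a single sign in all 4 libraries for 9 of these 10, which is that smallest value (exact permutation, adjusted over the 12 to p = 0.136). Slc1a3 exceeded Slc1a2 by 4.63 ± 0.14 (log2, SD, n = 4), a ratio of means of 27.2 (46.3 with the longest transcript, 49.3 with the principal transcript, 17.7 on CPM), and Slc1a1 by 4.29 ± 0.11, a ratio of 20.995. It exceeded Slc1a5 by 6.29 ± 0.27, a ratio of 109 that ran from 49.3 on deposited TPM to 224 on CPM. It exceeded Glul by 2.03 ± 0.18, a ratio of 4.11 that ran from 1.35 on deposited TPM to 10.6 on CPM. Slc1a2 was below Slc1a1 by -0.34 ± 0.038 in all 4 libraries, and by -1.22 ± 0.038 with the longest transcript, but above it, by 0.29 ± 0.041, on CPM (counts scaled to library size, with no length correction).

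The exchanger ratio was negative in all 4 libraries. Slc1a5 over Slc1a4 was -3.97, -3.96, -4.03 and -3.14 on the log2 scale in replicates 1 to 4. The first 3 libraries lay within 0.1 of each other, and replicate 4 stood apart with both the lower Slc1a4 and the higher Slc1a5. Without it the mean moved from -3.77 ± 0.42 to -3.99 ± 0.040 (log2, SD), and on deposited TPM it was -2.81 ± 0.41.

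Glul over Glud1 was 0.93, 0.86, 0.76 and 0.42 on the log2 scale in replicates 1 to 4, with a mean of 0.75 ± 0.22 (SD, n = 4). Glul was the higher of these enzymes in every library, and the ratio was smallest in replicate 4.

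**Figure D2:**
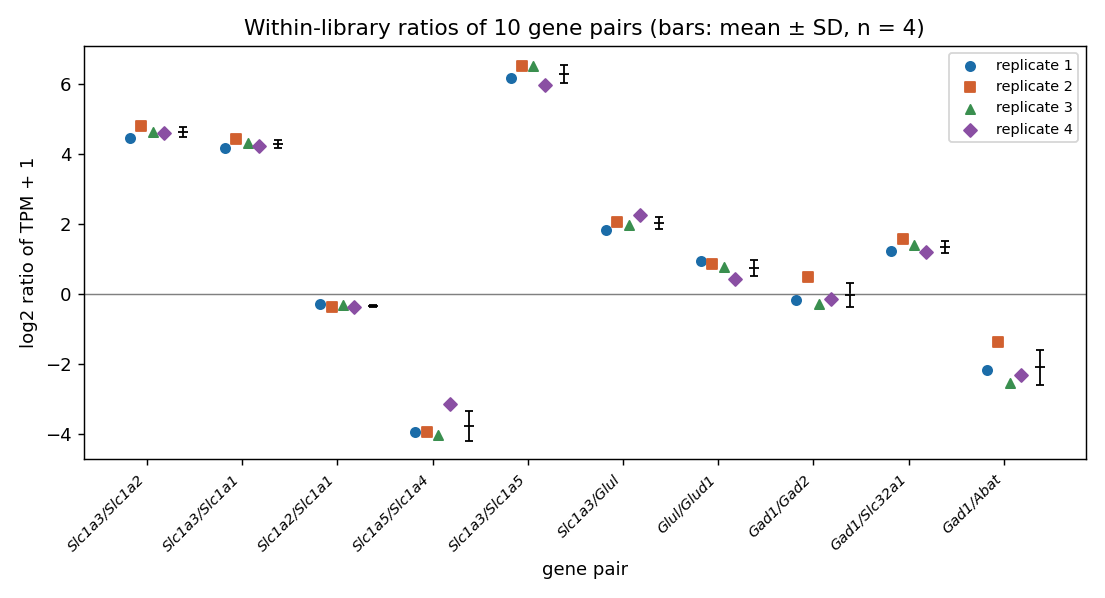
Log2 ratio of TPM + 1 for 10 gene pairs in each of the 4 libraries, with the mean ± SD (n = 4) beside the points. Gad1 over Gad2 alone straddles 0, and replicate 4 sits apart for Slc1a5 over Slc1a4 (-3.14).

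Gad1 and Gad2 could not be ranked. Their log2 ratio was -0.17, 0.49, -0.30 and -0.15 in replicates 1 to 4, with a mean of -0.032 ± 0.36 (SD, n = 4; p = 1 by the exact permutation), and Gad1 was higher in 1 of 4 libraries. The sign also depended on gene length, since the merged exons of Gad1 (7639 bases) are longer than its longest transcript (3601 bases), while those of Gad2 (5876 and 5744 bases) are nearly equal. With the longest transcript the ratio was 0.74 ± 0.38, and with the principal transcript 0.80 ± 0.37. On the deposited TPM it was 0.45 ± 0.27.

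Genes that share the pathway were taken from 7 lists. Their counts are to be read beside the protein-coding genes tested, of which 75.7% were called above and 11.5% below 1 TPM, and 45.2% above 10 TPM. A glutamate metabolism list held 15 enzymes that make or use glutamate or, like Ogdh, act in adjoining steps. Of these, 13 were above 1 TPM and 9 above 10 TPM, and the list median was 21.9 TPM. The highest were Aldh18a1, which starts proline synthesis from glutamate, at 202 ± 11.2 TPM (SD, n = 4), Ogdh, a subunit of the oxoglutarate dehydrogenase of the citric acid cycle, at 183 ± 12.4 TPM, the ornithine aminotransferase gene Oat at 181 ± 14.8 TPM, and Psat1, an aminotransferase of serine synthesis, at 112 ± 3.28 TPM. No gene of this list was called below 1 TPM, though 1 was not called and Nags, which was not tested, had no count in any library, which at the smallest library still allows a level of 0.113 CPM (3 counts, counting error only).

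The glutamine amidotransferase list also holds Qars, a glutaminyl-tRNA synthetase gene. All 10 genes of this list were above 1 TPM, 9 of them above 10 TPM, with a median of 36.2 TPM. Asns, asparagine synthetase, was at 171 ± 14.0 TPM (SD, n = 4). The nucleotide synthesis genes Gmps, Ctps and Pfas were at 124 ± 17.1, 123 ± 14.4 and 61.2 ± 7.77 TPM. Glutamine transport genes were above 1 TPM in 11 of 12 cases, with a median of 21.6 TPM. Slc3a2, the heavy chain of several amino acid exchangers, was at 160 ± 24.8 TPM, Slc38a2, a sodium-coupled glutamine carrier, at 72.1 ± 4.76 TPM, Slc7a6 at 40.5 ± 1.34 TPM and the neutral amino acid carrier gene Slc6a15 at 31.0 ± 5.52 TPM. Each of these was far above Slc1a5, at 2.44 TPM.

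All 4 mitochondrial carriers of glutamate or aspartate were above 1 TPM. Slc25a22, a glutamate carrier of the inner membrane, was at 31.0 ± 1.21 TPM (SD, n = 4), its relative Slc25a18 at 3.88 ± 1.20 TPM, and the aspartate-glutamate exchangers Slc25a12 and Slc25a13 at 26.6 ± 0.835 and 7.17 ± 1.46 TPM. Of 6 genes linked to glutathione, not all of them synthesis genes, 4 were above and 2 below 1 TPM. Ggt7, a gamma-glutamyltransferase family gene rather than a synthesis gene, was at 67.8 ± 2.63 TPM. Of the synthesis genes, Gss was at 9.19 ± 1.12 TPM. The subunits of glutamate-cysteine ligase, Gclm and Gclc, were at 7.58 ± 1.35 and 6.61 ± 1.06 TPM. Slc7a11, which exports glutamate in exchange for cystine, was below 1 TPM at 0.398 ± 0.048 TPM (edgeR adjusted p = 0.000258), as was Ggt1 at 0.311 ± 0.089 TPM (edgeR adjusted p = 0.00879).

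**Figure D3:**
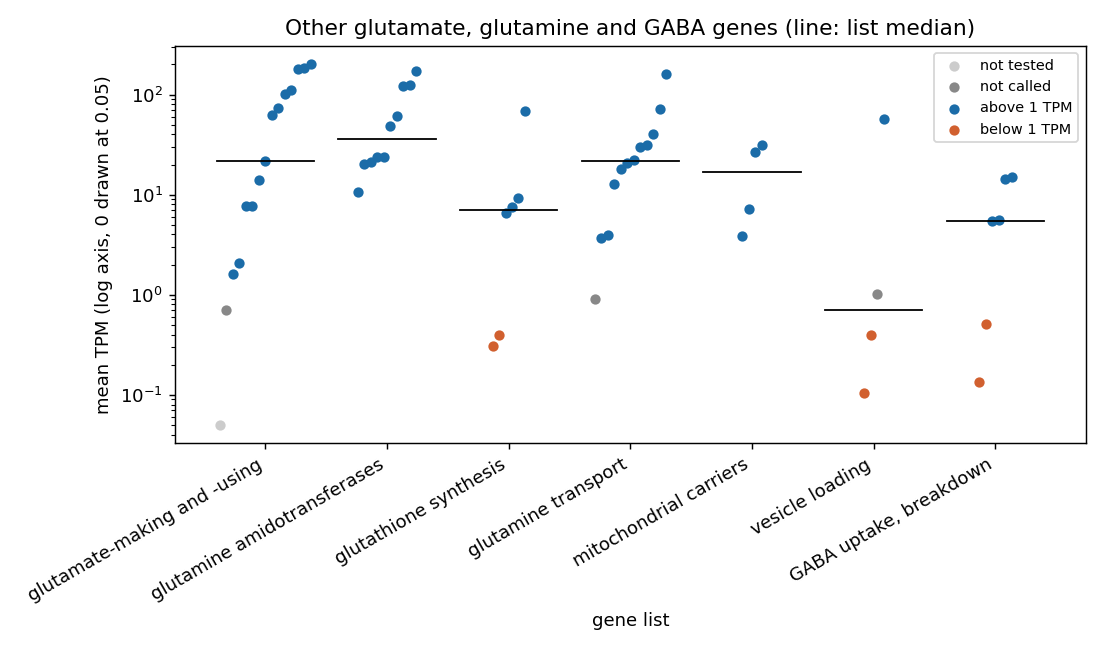
Mean TPM (log axis) of each gene in 7 lists of the pathway, coloured by its call against 1 TPM, with a line at each list's median; the gene with no counts, Nags, is drawn at 0.05. The amidotransferase list has the highest median (36.2 TPM) and the vesicle loading list the lowest (0.701 TPM).

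Of the vesicle loading genes, 1 of 4 was above 1 TPM. Slc17a6, a vesicular glutamate transporter of glutamatergic neurons, was at 50.4, 55.7, 61.9 and 62.3 TPM. Slc32a1, which loads GABA into vesicles, had 11, 16, 3 and 12 counts, or 0.395 ± 0.192 TPM (SD, n = 4; edgeR adjusted p = 0.0378, below 1 TPM), and Slc17a8, another vesicular glutamate transporter gene, had 10, 0, 8 and 0 counts (edgeR adjusted p = 0.0236, below 1 TPM). The Slc32a1 call was lost in all 4 fits that left out a library (edgeR adjusted p = 0.0663 to 0.0859). The antisense gene Gm14205 covers 24.9% of the exonic bases of Slc32a1, with no count in any library. Gad1 exceeded Slc32a1 by 1.34 ± 0.17 (log2 ratio of TPM + 1, SD, n = 4) in all 4 libraries. The ratio of means, without the added 1 TPM, was 6.47 and ran from 1.80 on deposited TPM to 17.7 on CPM. With Slc32a1 below 1 TPM, the added 1 TPM makes the log2 value smaller than the ratio of means would give.

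Of 6 genes that take up or break down GABA, 4 were above and 2 below 1 TPM. The glial GABA transporter gene Slc6a11 was at 14.9 ± 1.503 TPM (SD, n = 4), Abat, the GABA transaminase gene, at 14.3 ± 2.63 TPM and Aldh5a1, which oxidises the product of Abat, at 5.47 ± 1.09 TPM. Gad1 was below Abat by -2.11 ± 0.51 (log2, SD, n = 4) in all 4 libraries, and by -0.94 ± 0.42 on deposited TPM. Slc6a12 (0.510 ± 0.168 TPM; edgeR adjusted p = 0.0434) and Slc6a13 (0.134 ± 0.173 TPM; edgeR adjusted p = 0.0249) were called below 1 TPM. The Slc6a12 call was lost in all 4 fits that left out a library (edgeR adjusted p = 0.0684 to 0.121), and the Slc6a13 call was kept in 1 of the 3 in which it was tested, that without replicate 2.

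Interneuron genes are given beside the decarboxylases because GABAergic interneurons are a known source of Gad1 and Gad2 transcripts. The whole list of 17 genes summed to 300, 376, 226 and 332 TPM in replicates 1 to 4, mostly from the neuropeptide genes Npy and Sst and the transcription factor gene Sp8. Gad1 too was highest in replicate 2 and lowest in replicate 3, as were Sst (70.1, 113, 58.3 and 66.7 TPM) and Npy (158, 191, 104 and 173 TPM). Without Npy, Sst and Sp8, the other 14 genes summed to 35.7, 30.5, 26.7 and 32.3 TPM, highest in replicate 1. Replicate 3 was the lowest library for 9 of the 17 genes. Replicate 2 was the highest for 3 of the 17, against 7 for replicate 1, 3 for replicate 3 and 4 for replicate 4. Gad2 had another order than Gad1, with its lowest value in replicate 2. The part of interneurons in the levels of Gad1 and Gad2 was not tested.

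**Figure D4:**
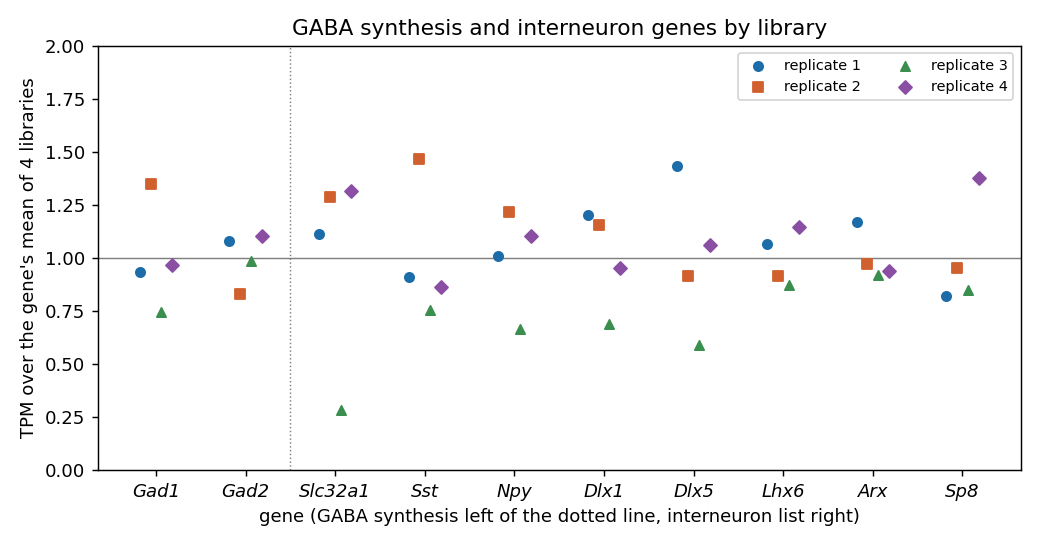
TPM of Gad1, Gad2 and 8 of the 17 genes of the interneuron list in each library, divided by the gene's mean over the 4 libraries. Gad1, Sst and Npy are highest in replicate 2 and lowest in replicate 3, and Gad2 is lowest in replicate 2. Over the whole list, replicate 2 was the highest library for 3 of the 17 genes.

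Genes whose profile over the 4 libraries was nearest to a member were sought among protein-coding genes with at least 100 counts in every library, by the root mean square difference of centred log2 CPM. With 4 libraries many genes match a flat profile, so these names describe likeness only. Nearest to Slc1a3 were Tmem178, Cdc45 and Lpar4 (0.0098 to 0.012), and 149 of 10241 genes lay within 0.05. Nearest to Slc1a2 were Zfp786, Nsmce4a and Mtf1 (0.0095 to 0.011), and to Glul were Urod, Rps26 and Tmem97 (0.0042 to 0.0071). Gad2 had Adgrb3, Atxn1 and Sbf2 (0.011 to 0.015). Gad1 stood more alone: Wdr17, Pold1 and Cntn4 were nearest, at 0.036 to 0.061, and 1 gene lay within 0.05.

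The TPM table that the authors deposited gave other levels for the same counts. In the authors' deposited table Slc1a3 was at 104 TPM and Gad2 at 0.750 TPM, and 1 of the 8 members in that table, Glul, was higher there (77.4 TPM) than by merged exons. Glud1 was not in it. Dividing the deposited count by the deposited TPM gave a value that followed the whole gene span, introns included, within 0.01 (log2) for 95.3% of 9848 genes, and merged exons for 0.619%.

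**Figure D5:**
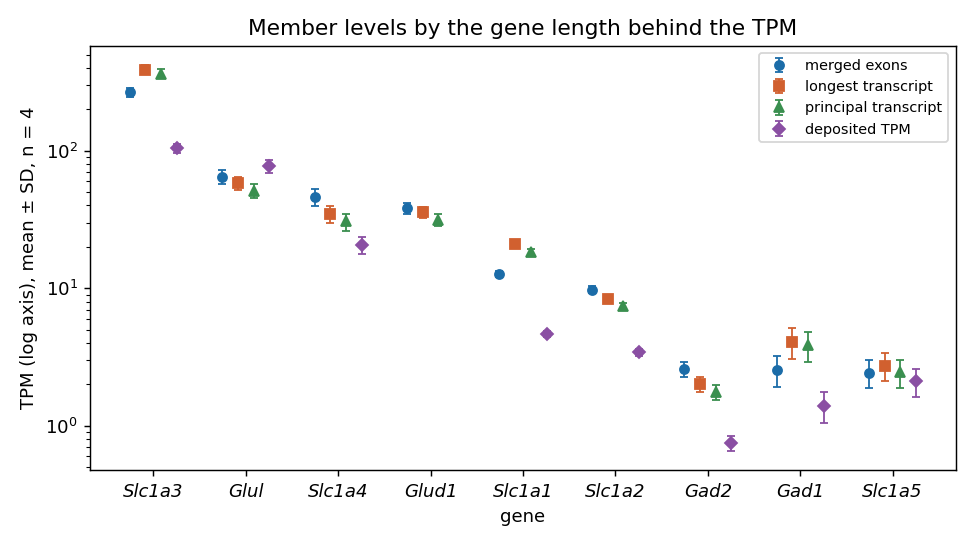
Mean TPM ± SD (log axis, n = 4) of the 9 members with merged exons, the longest transcript or the principal transcript as gene length, and in the authors' deposited table, where Glud1 is not listed. Slc1a3 is highest on every scale, and Gad1 lies above Gad2 on every scale but merged exons.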

How the data were processed

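The authors deposited raw counts, whole numbers of reads per Ensembl gene, and a TPM table. Per the submitters' processing notes, bcl2fastq 2.19.1 and STAR 2.5.2b were used with GRCm38; what counted the reads, its strand setting and its annotation were not given in the sources used here. Per the labels' protocols, cDNA was primed on poly-A tails with template switching and amplified. Because the deposited TPM followed the gene span, TPM was recomputed from counts with merged exons of GENCODE M21, in which 45143 of 45706 identifiers matched. Genes with at least 10 counts in total were tested against 1 and 10 TPM by a quasi-likelihood F test of the gene's level, written out from edgeR 4.0.16 (R 4.3.3) fits with its Poisson bound, two-sided, with Benjamini-Hochberg adjustment over 20991 genes. This was checked on simulated data with known levels. DESeq2 1.42.0 and limma 3.58.1 served alternatives. The members, lists and pairs were chosen with earlier results of these data known. The 12 pairs were tested by exact sign-flip permutation.

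Named genes were all members, both genes of each pair, Slc1a6 and Slc1a7, and in each pathway list the 4 highest called above 1 TPM and any called below it. For Slc1a3, Slc1a2, Glul, Gad1 and Gad2, the 3 genes nearest in profile were named. Some of these genes are not reported here. Alternatives were other library scalings, filters, tests, gene lengths and pseudocounts, and leaving out each library.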

Additional observations from a re-analysis of the deposited data

Results flagged for a closer look

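In 2 of 66 sets of 4 values tested, a library lay further from the others than Dixon's 95% critical value allows; chance gives about 1 in 20. Each was replicate 4. The log2 ratio of Slc1a5 over Slc1a4 was -3.14 there, against -4.03 to -3.96 in the other libraries. Gmps, GMP synthetase, was at 149 TPM, against 113 to 117 TPM.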

How the results depend on the processing

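No paired analysis was possible because all 4 libraries form a single group. Of 799 recomputed values, 733 were kept, 53 moved, 10 changed sign and 3 newly passed the threshold. A count was kept if within 1.5-fold, a share if within its SD, and a pair by its sign. A member's level was kept by its direction and call. Calls can thus change within a kept count. On the deposited TPM, which list fewer genes, genes above 1 TPM went from 13828 to 9539 and members from 9 to 7, both kept. The cause of a change was not tested unless the setting's construction shows it. On the authors' deposited TPM with limma, which uses gene spans, Gad2 lay -0.42 below 1 TPM (limma adjusted p = 0.0358) and Slc1a1 -1.10 below 10 TPM (limma adjusted p = 1.79e-05). There 1 member was below 1 TPM, 3 above 10 TPM and 5 below it, and 4055 genes were below 1 TPM. Of mitochondrial carriers 2 were above and 1 below 1 TPM, and 1 above 10 TPM. Of vesicular genes 2 were above and 1 below 1 TPM. The glutamate metabolism list had 1 gene below 1 TPM and the glutathione list 1. In the amidotransferase list 5 genes exceeded 10 TPM, and in the GABA uptake list 0.

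Without a filter, 6564 genes were below 1 TPM and 18895 below 10 TPM; with 10 counts required in every library, which tests fewer genes, 549 and 6441. That filter left below 1 TPM 1 glutathione, 0 vesicular and 0 GABA uptake genes, and below 10 TPM 1 vesicular and 2 GABA uptake genes. With either the longest or the principal transcript, 2 glutathione genes were above 10 TPM and 3 of the glutamate metabolism list below it. The principal transcript, which was added after seeing the data, put 1 amidotransferase below 10 TPM. Slc1a3 made up 85.1%, 85.9% and 84.1% of summed Slc1 levels with the longest transcript, the principal transcript and CPM. Log2 Gad1 over Gad2 was 0.74, 0.80 and 0.28 on these scales and 0.45 on deposited TPM, and log2 Slc1a2 over Slc1a1 was 0.29 by CPM. Leaving out a library gave 1525 to 1707 genes below 1 TPM, 0 to 1 vesicular and 0 to 1 GABA uptake genes, and a Gad1 over Gad2 ratio of -0.21 (without replicate 2) to 0.056 (without replicate 3), with 0.015 without replicate 1 and 0.0087 without replicate 4. Calls below 1 TPM that were lost without some library were those of Slc1a7, Slc32a1, Slc6a12 and Slc6a13, with at most 19 counts in any library; Ggt1 and Slc17a8, with at most 14, kept theirs in every fit that tested them, and the part of depth was not tested.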
